A study of Thermothelomyces thermophilus with 18 samples.

Results

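The comparison described here is that of the ΔMttrc-1 strain of Myceliophthora thermophila after 6 h on Avicel, a microcrystalline cellulose, against the same strain after 4 h on starch. Its members are the libraries whose labels name the deletion strain with one of these carbon sources and times, 6 of the 18 libraries of the series, 3 in each group. ΔMttrc-1 lacks Mttrc-1 (Mycth_90344), which encodes a Cys2His2 zinc finger transcription factor, and was made with CRISPR-Cas9 and a neo marker cassette. Mycelia of every group were grown on glucose, washed, and moved to fresh medium that held either Avicel or soluble starch, each at 2%. The other groups used for reference, 3 libraries each, were ΔMttrc-1 after 4 h on Avicel, and the wild type (MtWT) after 6 h on Avicel and after 4 h on starch. Starch was sampled at 4 h only, so carbon source and time in culture cannot be told apart within the comparison. The study describes each group as 3 independent biological replicates, and the sources used here do not say how many independent transformants of the deletion strain were sequenced. Levels of Mttrc-1 are not analysed here, which leaves the strain labels without a check on the deleted gene.

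Crystalline cellulose is degraded outside the hypha by secreted enzymes that act together. Endoglucanases cut within the glucan chain, cellobiohydrolases release cellobiose from chain ends, lytic polysaccharide monooxygenases (LPMOs, formerly glycoside hydrolase family 61) cleave the crystalline surface by oxidation, cellobiose dehydrogenases supply electrons to them, and beta-glucosidases split cellobiose into glucose. Filamentous fungi switch these genes on when cellulose replaces an easy sugar. The proteins pass through the endoplasmic reticulum (ER), whose folding and translocation machinery is controlled by the unfolded protein response (UPR) and its transcription factor, HAC-1.

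Gene counts per library of the compared groups added up to between 18208283 and 23155923. Levels are given as CPM, counts scaled by the library total times its TMM factor, which puts libraries of unequal depth on one scale. Where TMM factors differ between groups, a ratio of CPM is not a ratio of shares of the counts. CPM also says nothing of the amount of RNA per cell. The factors were 1.22 to 1.23 for ΔMttrc-1 on Avicel at 6 h and 1.15 for ΔMttrc-1 on starch. In the reference groups they were 0.7965 to 0.822 for ΔMttrc-1 on Avicel at 4 h, 0.947 to 0.960 for MtWT on Avicel at 6 h and 1.15 to 1.16 for MtWT on starch. The 10 most abundant genes took 6.80% to 6.90% of the counts on Avicel at 6 h and 6.37% to 6.39% on starch. On the first principal component of all 18 libraries, which held 42.7% of the variance, the ΔMttrc-1 Avicel 6 h libraries lay at 23.4 to 23.9 and the ΔMttrc-1 starch libraries at 43.4 to 44.9. The MtWT Avicel 6 h libraries lay at -39.7 to -37.9 on the same axis, and the ΔMttrc-1 Avicel 4 h libraries at -23.2 to -22.3. The libraries of the compared groups lay close to their replicates on this axis. MtWT starch replicate 3 lay somewhat apart, at 42.8 against 47.1 and 46.7 for the other MtWT starch libraries. Actin and tef-1 (translation elongation factor), used as controls, averaged 1541 ± 5.44 and 4035 ± 49.1 CPM on Avicel at 6 h, against 1369.9 ± 14.5 and 3905 ± 26.5 CPM on starch (SD, n = 3). They were less even against ΔMttrc-1 on Avicel at 4 h, where their log2 fold changes at 6 h over 4 h lay between -0.62 and -0.38.

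Of 8573 genes tested with edgeR's quasi-likelihood test, 1121 (13.1%) passed an adjusted p under 0.05 with a fold change over 2 and are written as called, higher or lower below. On Avicel at 6 h, 531 genes (6.19%) were higher than on starch and 590 (6.88%) were lower. Changes over 4-fold were seen in 164 of the higher and 207 of the lower genes, and changes over 64-fold in 14 and 11. The 3 Avicel and the 3 starch libraries did not overlap in 1111 of the 1121 called genes, and in 6515 of all 8573 tested. The median log2 fold change over all genes tested was -0.0015. Among the 12 most increased genes with at least 10 CPM in a group, 5 belonged to the list of cellulose degradation genes and 1 to that of hemicellulose degradation genes.

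**Figure D1:**
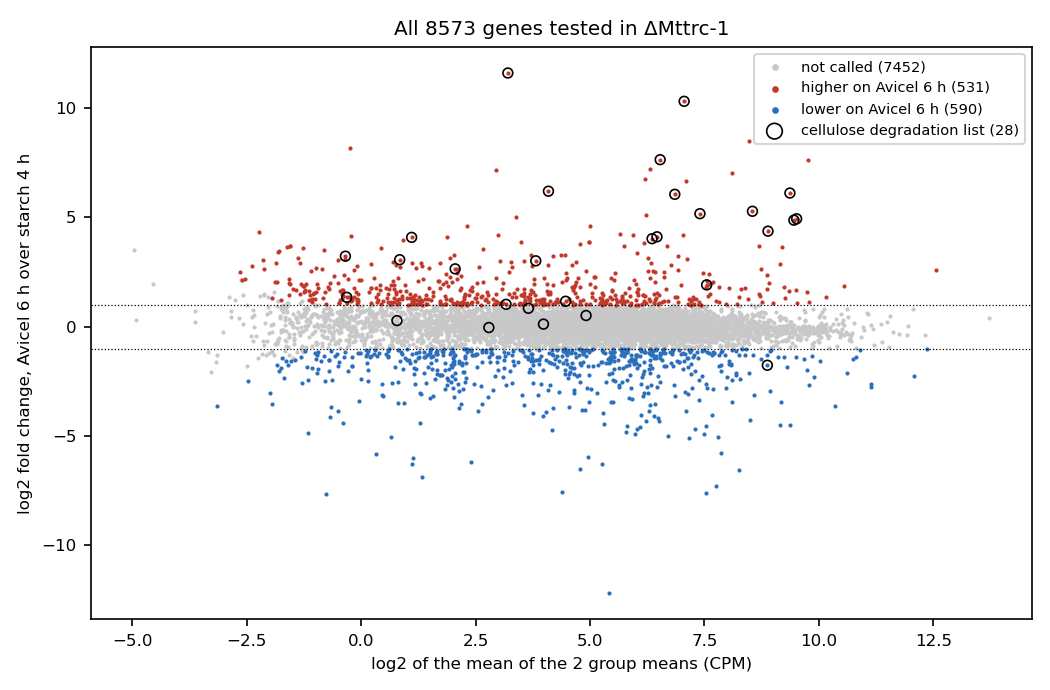
Log2 fold change of ΔMttrc-1 on Avicel at 6 h over ΔMttrc-1 on starch at 4 h, against the log2 mean level in CPM, for the 8573 genes tested. Red points are the 531 called higher, blue points the 590 called lower, grey points the rest, dotted lines a fold change of 2 and black rings the 28 tested cellulose degradation genes, of which 22 were higher.

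Most cellulose degradation genes were higher on Avicel in the strain without Mttrc-1. Of 28 members tested, 22 were higher on Avicel at 6 h, 1 was lower and 5 were not called, with a median log2 fold change of 3.62, beside 6.19% of all genes tested called higher. The list was put together from the study's text and its gene descriptions, and several members had been chosen there for a difference between the strains on Avicel. The listed genes took 0.940%, 0.954% and 0.952% of all counts on Avicel at 6 h, against 0.123%, 0.128% and 0.126% on starch.

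Both cellobiohydrolase genes rose. The cellobiohydrolase gene cbh-1 (Mycth_109566) had 1380.5, 1434 and 1432 CPM on Avicel at 6 h, against 45.7, 45.9 and 47.2 CPM on starch, a log2 fold change of 4.93 ± 0.058 (SE), adjusted p = 1.14e-28. For cbh-2 (Mycth_66729) the levels were 1282, 1324 and 1299 CPM on Avicel, against 17.03, 20.1 and 19.5 CPM on starch (log2 fold change 6.11 ± 0.098 (SE), adjusted p = 6.13e-22). In both genes the lowest Avicel library stood more than an order of magnitude above the highest starch library.

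The endoglucanase genes did not move as one group, with 4 of 6 higher, 1 lower and 1 not called. The endoglucanase gene gh5-1 (Mycth_86753) had 1348, 1349 and 1372 CPM on Avicel at 6 h and 47.0, 46.6 and 45.3 CPM on starch (log2 fold change 4.87 ± 0.069 (SE), adjusted p = 6.44e-27). Mycth_111372 was 66.4-fold higher, with 233, 232 and 218 CPM on Avicel against 4.25, 3.05 and 2.87 CPM on starch. In both genes the groups were far apart. Mycth_76901 (endoglucanase V) and Mycth_116157 were 17.3-fold and 3.76-fold higher. The endoglucanase gene Mycth_109444 had 34.7, 36.7 and 34.9 CPM on Avicel and 24.1, 23.2 and 27.3 CPM on starch, groups that did not overlap but differed by 1.43-fold only, under the fold threshold. Mycth_2090891, annotated as a Barwin-related endoglucanase, went the other way with 209, 216 and 217 CPM on Avicel against 708, 734 and 731 CPM on starch (log2 fold change -1.76 ± 0.085 (SE), adjusted p = 7.27e-13).

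Of 10 LPMO genes tested, 8 were higher and none was lower. Mycth_110651 (family 61G) had 271, 261 and 266 CPM on Avicel at 6 h and at most 0.240 CPM in any starch library, a log2 fold change of 10.30 ± 0.097 (SE), adjusted p = 2.85e-30. Mycth_112089 (family 61A) had 182, 180.4 and 189.96 CPM on Avicel, against 0.681, 1.19 and 0.908 CPM on starch (log2 fold change 7.64 ± 0.094 (SE), adjusted p = 2.53e-28). No read of Mycth_100518 (family 61W) was counted in the starch libraries, against 1481 reads in the 3 Avicel libraries, so the gene was at least 420-fold higher, taking a floor of 3 reads over the starch group. Mycth_2063480 (family 61M) was 73.3-fold higher, with 31.2, 33.9 and 35.8 CPM on Avicel and 0.361, 0.354 and 0.669 CPM on starch. In all 4 genes every Avicel library lay above every starch library, which the rule that ranked them required. The groups did not overlap in 1111 of the 1121 called genes. The LPMO gene Mycth_80312 was not called, at 14.7, 15.9 and 17.9 CPM on Avicel against 8.25, 10.3 and 8.51 CPM on starch, and Mycth_2053130 had 16.5 ± 1.42 CPM on Avicel against 15.1 ± 0.669 CPM on starch (SD, n = 3). Mycth_2044732, at 1.15 ± 0.475 CPM on Avicel and 0.458 ± 0.0862 CPM on starch, rested on few reads and lost its call without Avicel replicate 2 (adjusted p = 0.0878).

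The genes that serve these enzymes followed. The cellobiose dehydrogenase gene Mycth_81925 had 715, 729.9 and 746 CPM on Avicel at 6 h, against 18.03, 17.9 and 20.6 CPM on starch (log2 fold change 5.28 ± 0.12 (SE), adjusted p = 3.74e-16), and Mycth_111388 of the same family was 35.9-fold higher. The beta-glucosidase gene gh1-1 (Mycth_115968) had 888, 905 and 919 CPM on Avicel and 44.3, 46.2 and 40.7 CPM on starch (log2 fold change 4.37 ± 0.078 (SE), adjusted p = 3.04e-23). The other beta-glucosidase genes, Mycth_66804 and Mycth_2059579, were only 2.03-fold and 2.24-fold higher, and the first lay below the fold threshold when any of 3 libraries was left out, with log2 fold changes of 0.955 to 0.999. Family 1 carbohydrate-binding module genes Mycth_101354 and Mycth_112399 rose 8.36-fold and 8.07-fold, while Mycth_2071057 had 5.89, 8.06 and 6.52 CPM on Avicel against 7.33, 6.89 and 6.79 CPM on starch. Per kilobase, gh5-1 was the most abundant of the named cellulase genes on Avicel at 6 h, with a mean of 1111 RPKM, followed by cbh-1 with 894 RPKM and cbh-2 with 868 RPKM.

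**Figure D2:**
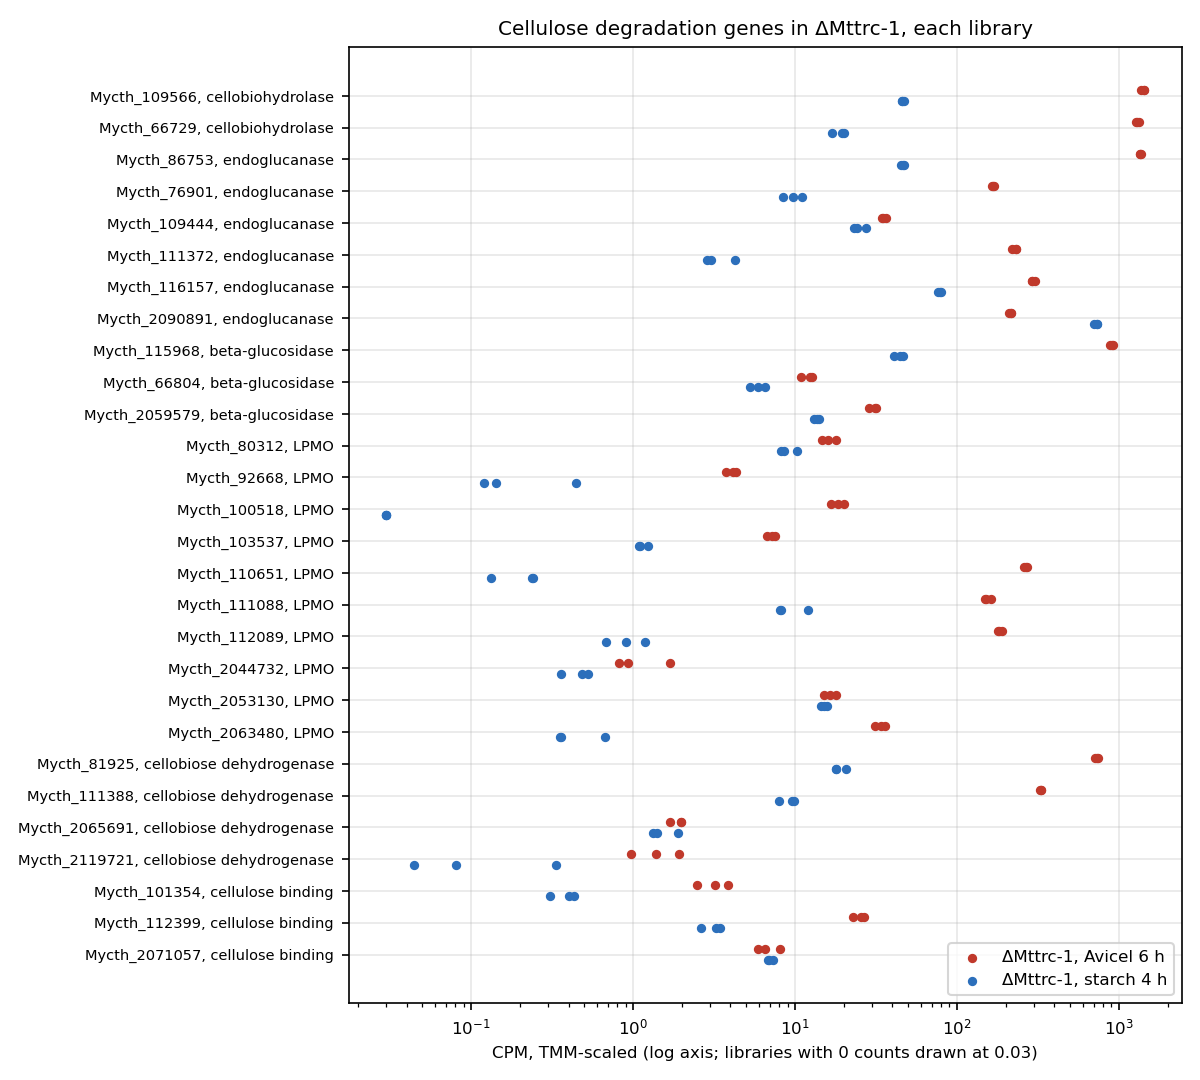
Level of each of the 28 tested cellulose degradation genes in the 6 ΔMttrc-1 libraries, in CPM on a log axis, with Avicel 6 h in red above starch 4 h in blue and 1 point per library. Libraries with no read are drawn at 0.03 CPM. Red and blue points are apart for the genes called, and only Mycth_2090891 has its red points to the left by more than the spread.

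Hemicellulose genes moved less uniformly. Of 18 tested, 10 were higher, 2 were lower and 6 were not called, with a median log2 fold change of 1.13. Among all genes tested, 6.19% were higher and 6.88% lower. All 4 tested xylanase genes were higher. The family 11 xylanase gene Mycth_100068 had 14.3, 16.3 and 15.3 CPM on Avicel at 6 h, against 0.200, 0.0442 and 0.0478 CPM on starch (7 reads in all), a log2 fold change of 7.14 ± 0.30 (SE), adjusted p = 3.75e-13. Mycth_112050 and Mycth_116553 were 24.6-fold and 7.46-fold higher, the second with 141, 143 and 144 CPM on Avicel and 20.8, 19.7 and 16.8 CPM on starch. Among genes that trim side chains, the acetylxylan esterase gene Mycth_2066457 and the family 43 gene Mycth_2064169 were 18.6-fold and 14.7-fold higher. The carbohydrate esterase family 3 gene Mycth_105128 was lower, with 35.3, 38.5 and 39.0 CPM on Avicel against 255, 268 and 265 CPM on starch. The listed hemicellulose genes together took 0.0815% of counts on Avicel at 6 h and 0.0608% on starch. Of 4 pectin genes tested, 1 was higher, the carbohydrate esterase family 12 gene Mycth_2019397 (log2 fold change 1.40 ± 0.20 (SE), adjusted p = 9.45e-07).

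Of 14 sugar transporter genes tested, 3 were higher and 3 lower, beside 6.19% higher and 6.88% lower among all genes tested. Mycth_114107 had 1696, 1716 and 1738 CPM on Avicel at 6 h against 9.30, 7.999 and 8.41 CPM on starch, 199.7-fold higher (log2 fold change 7.64 ± 0.085 (SE), adjusted p = 4.73e-29). It held the third place by CPM on Avicel among the genes called higher, above cbh-1. Mycth_108890 was 2.72-fold higher. On the other side, Mycth_112491 had 62.8, 61.2 and 62.2 CPM on Avicel against 217, 219 and 224 CPM on starch, Mycth_108924 49.6, 49.4 and 50.7 CPM on Avicel against 134, 134 and 134 CPM on starch, and Mycth_108044 was 12.03-fold lower on Avicel.

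The genes that use starch were few on the list and mostly not called. Glucoamylase, the enzyme that releases glucose from starch chain ends, is encoded by glaA (Mycth_72393), which had 29.2, 27.001 and 26.1 CPM on Avicel at 6 h, against 97.1, 103 and 107 CPM on starch (log2 fold change -1.90 ± 0.069 (SE), adjusted p = 2.48e-18). The alpha-glucosidase gene Mycth_2303089 had 7.84, 8.20 and 7.03 CPM on Avicel against 13.3, 13.4 and 13.1 CPM on starch, groups that did not overlap with a difference under the fold threshold (log2 fold change -0.79 ± 0.11 (SE), adjusted p = 6.13e-07). In all, 1 of 5 starch and alpha-glucan genes was lower and none was higher, beside 6.88% lower and 6.19% higher among all genes tested. A list of 5 is too short to set against these shares.

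None of the 10 UPR and ER genes was called in ΔMttrc-1, in either direction, with a median log2 fold change of -0.14, a range from -0.37 to 0.43, and 2 genes higher and 7 lower by edgeR's adjusted p alone (31.4% and 32.6% of all genes). All 10 come from the study's own choice of secretory genes, picked for reduced levels in ΔMttrc-1 relative to MtWT on Avicel. The UPR transcription factor gene Mthac-1 (Mycth_2310995) had 529.95, 535 and 538 CPM on Avicel at 6 h, against 591, 585 and 570.4 CPM on starch (log2 fold change -0.12 ± 0.043 (SE), adjusted p = 0.0146). The ER chaperone gene grp78 (Mycth_2315513) had 937, 949 and 956 CPM on Avicel and 1097, 1116 and 1119 CPM on starch (log2 fold change -0.23 ± 0.042, SE). The protein disulphide isomerase gene pdi1 (Mycth_2296005) had 913, 920.1 and 928 CPM on Avicel and 736, 739 and 736 CPM on starch (log2 fold change 0.32 ± 0.046, SE). These encode proteins that fold client proteins and form their disulphide bonds in the ER. The calnexin gene cnx1 (Mycth_2295005) had 635, 626 and 629 CPM on Avicel and 792, 792 and 806 CPM on starch. Replicates lay close together, so that differences well under the fold threshold passed the adjusted p.

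The same carbon sources and times in MtWT gave a different picture. In MtWT, 1112 genes (13.0%) were higher on Avicel at 6 h and 902 (10.5%) lower, 23.5% of genes tested in all, and 8 of the 10 UPR and ER genes were higher (median 1.34 on the log2 scale). The difference between the strains was tested directly, as the response of ΔMttrc-1 minus the response of MtWT, and was called for 2587 genes (30.2%), 1184 (13.8%) higher and 1403 (16.4%) lower in ΔMttrc-1. It was lower for 7 of the 10 UPR and ER genes and higher for none. For grp78 the difference was -1.82 ± 0.060 (SE), adjusted p = 5.31e-19, with 2503 ± 41.1 CPM on Avicel and 829 ± 27.9 CPM on starch in MtWT (SD, n = 3). For cnx1 it was -2.08 ± 0.055 (SE), adjusted p = 4.80e-21. For Mthac-1 it was -0.89 ± 0.061 (SE), adjusted p = 1.38e-12, under the fold threshold. As the genes were picked for lower levels in ΔMttrc-1 on Avicel, the direction of these differences is not independent evidence.

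**Figure D3:**
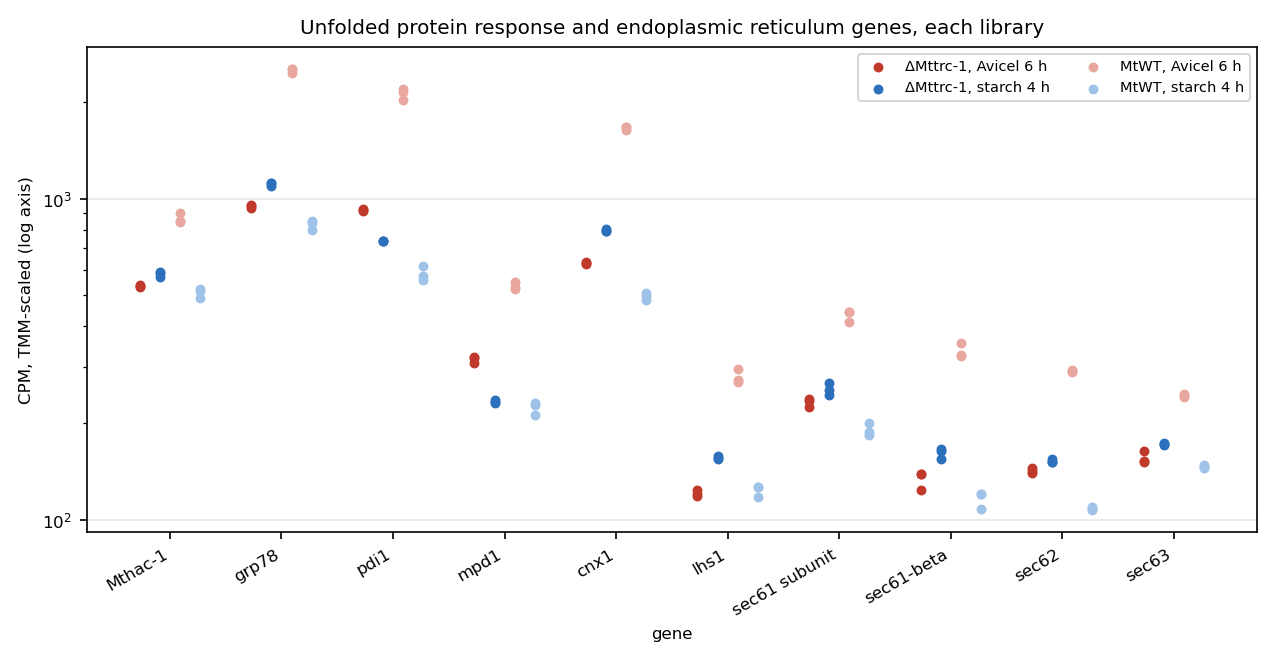
Levels of the 10 UPR and ER genes in CPM on a log axis, 1 point per library, for ΔMttrc-1 on Avicel at 6 h (dark red), ΔMttrc-1 on starch at 4 h (dark blue), MtWT on Avicel at 6 h (light red) and MtWT on starch at 4 h (light blue). In ΔMttrc-1 the dark points of the carbon sources lie close together, while in MtWT the light red points lie above the light blue ones in each gene.

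Cellulose degradation genes were raised in both strains, 22 of 28 in ΔMttrc-1 and 23 of 28 in MtWT, with medians of 3.62 and 5.04 on the log2 scale. Among all genes tested, 6.19% were higher in ΔMttrc-1 and 13.0% in MtWT. The test of the difference called 12 of the 28 lower in ΔMttrc-1 and 3 higher, beside 16.4% lower and 13.8% higher among all genes. Several members had been chosen by the study for a difference between the strains on Avicel, so the direction of these counts is not independent evidence. The cbh-1 gene reached 1415 ± 30.4 CPM in ΔMttrc-1 on Avicel at 6 h and 8445 ± 108 CPM in MtWT on Avicel at 6 h, while the starch levels were 46.3 ± 0.818 CPM in ΔMttrc-1 and 65.2 ± 2.35 CPM in MtWT (difference of response -2.08 ± 0.072 (SE), adjusted p = 1.49e-18). Differences were not called for cbh-2 (-0.54 ± 0.12, SE), gh5-1 (-0.43 ± 0.085), gh1-1 (-0.41 ± 0.099) or the sugar transporter gene Mycth_114107 (-0.11 ± 0.11), the last of which turned to 0.26 with library totals. Mean levels of cbh-2 and gh5-1 were below those of MtWT on both carbon sources. On Avicel at 6 h, cbh-2 had 1301 ± 21.5 CPM in ΔMttrc-1 and 6029 ± 121 CPM in MtWT, and on starch 18.9 ± 1.604 CPM in ΔMttrc-1 and 59.8 ± 3.29 CPM in MtWT. For gh5-1 the levels were 1356 ± 13.2 CPM in ΔMttrc-1 and 4913 ± 161 CPM in MtWT on Avicel, and 46.3 ± 0.923 CPM in ΔMttrc-1 and 125 ± 4.37 CPM in MtWT on starch. The LPMO gene Mycth_80312 had 16.2 ± 1.62 CPM in ΔMttrc-1 and 611 ± 37.3 CPM in MtWT on Avicel at 6 h, and 9.01 ± 1.09 CPM in ΔMttrc-1 and 2.67 ± 0.575 CPM in MtWT on starch (difference -7.004 ± 0.15 (SE), adjusted p = 1.12e-21). The xylanase gene Mycth_100068 had 15.3 ± 1.04 CPM in ΔMttrc-1 and 1449 ± 48.7 CPM in MtWT on Avicel at 6 h (difference -5.12 ± 1.21 (SE), adjusted p = 0.00103), a difference that rested on 7 starch reads in ΔMttrc-1 and was not called without starch replicate 1 of that strain (adjusted p = 0.0814).

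The genes called in each strain overlapped in part, and the comparisons share no library. Of the genes higher on Avicel at 6 h, 216 were called higher in both strains, 40.7% of the 531 in ΔMttrc-1 and 19.4% of the 1112 in MtWT. Of the genes lower on Avicel, 78 were called lower in both, 13.2% of the 590 in ΔMttrc-1 and 8.65% of the 902 in MtWT. Among all genes tested, 10.5% were lower in MtWT and 6.88% in ΔMttrc-1, close to these shares, while 13.0% were higher in MtWT and 6.19% in ΔMttrc-1. A further 192 genes were lower in ΔMttrc-1 and higher in MtWT, and 70 were higher in ΔMttrc-1 and lower in MtWT. The split of the strain difference depended on scaling. With library totals in place of TMM factors, 2077 genes were higher and 898 lower in ΔMttrc-1, and the median difference over all genes was 0.403 in place of 0.0358 (log2), while 6 of the 10 UPR and ER genes were lower, and of the cellulose degradation genes 5 were higher and 11 lower.

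**Figure D4:**
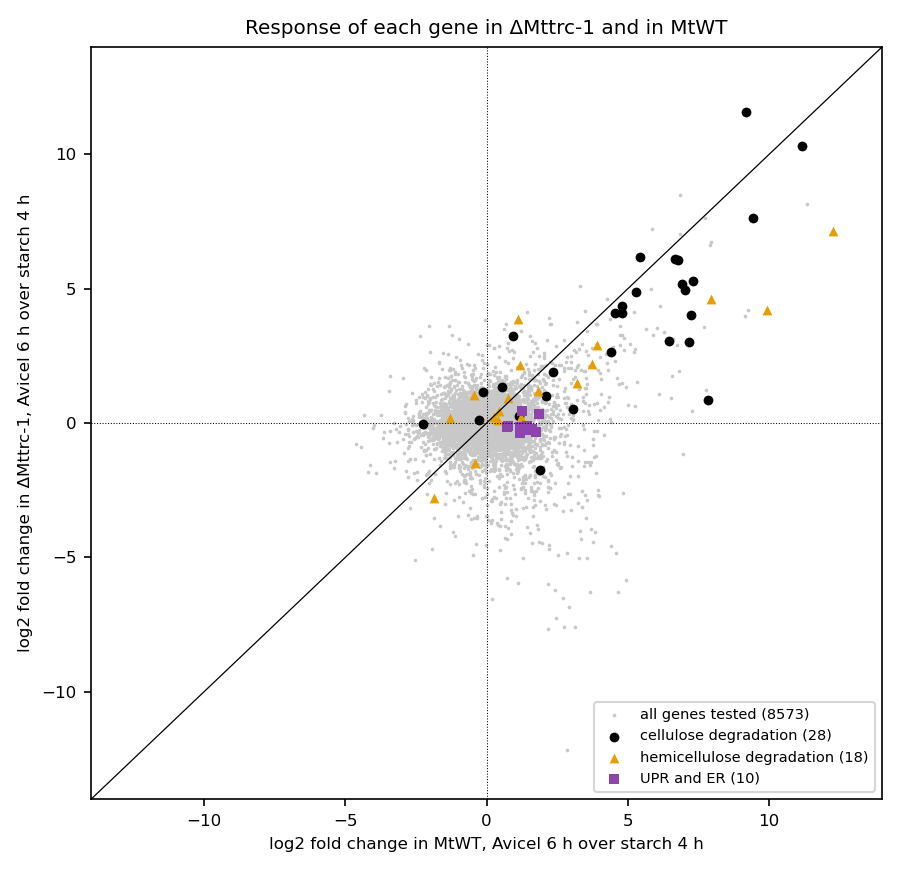
Log2 fold change on Avicel at 6 h over starch at 4 h in ΔMttrc-1 (vertical axis) against that in MtWT (horizontal axis), 1 point per gene, for all 8573 genes tested (grey), cellulose degradation (black circles), hemicellulose degradation (orange triangles) and UPR and ER genes (purple squares). Cellulose degradation genes lie to the upper right, mostly below the line of equal response, and UPR and ER genes lie near 0 on the vertical axis and to the right of 0 on the horizontal one.

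Most of the 12 most decreased genes in ΔMttrc-1 were higher on Avicel in MtWT. The largest fall was that of Mycth_107763, a major facilitator superfamily (MFS) transporter gene, with 1 read in the 3 Avicel 6 h libraries and 5812 reads in the 3 starch libraries of ΔMttrc-1. The ratio of starch to Avicel levels was 6830, with a 95% counting interval from 1230 to 270000 (exact, counting error only). In MtWT the same gene had 45.4 ± 2.74 CPM on Avicel at 6 h and 6.22 ± 0.926 CPM on starch, the opposite direction, and the difference between the strains was called (adjusted p = 6.79e-22).

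Of the other 11 most decreased genes, 8 were likewise called higher on Avicel in MtWT. The same held for 192 of all 590 genes called lower in ΔMttrc-1, and 13.0% of all genes tested were called higher in MtWT. Mycth_2296904 had 2.06, 1.73 and 1.95 CPM in ΔMttrc-1 on Avicel at 6 h against 364, 369 and 373 CPM in ΔMttrc-1 on starch, while MtWT had 135 ± 14.5 CPM on Avicel and 20.3 ± 0.786 CPM on starch. Mycth_73236 had 2.93, 2.79 and 2.50 CPM in ΔMttrc-1 on Avicel against 428, 423 and 427 CPM in ΔMttrc-1 on starch, with 60.1 ± 3.34 CPM on Avicel and 10.97 ± 0.726 CPM on starch in MtWT. The starch levels of both were more than an order of magnitude higher in ΔMttrc-1 than in MtWT, and the Avicel levels more than an order of magnitude lower. Mycth_112714, annotated as a class-II pyridine nucleotide-disulphide oxidoreductase, had 0.638, 0.636 and 0.469 CPM on Avicel and 52.4, 54.5 and 55.4 CPM on starch in ΔMttrc-1. Mycth_2307990 had 6.64, 6.61 and 6.45 CPM on Avicel and 613, 596 and 615 CPM on starch in ΔMttrc-1, with 21.9 ± 1.04 CPM on Avicel and 19.2 ± 1.32 CPM on starch in MtWT, where it was not called. Mycth_112362, of the regulator of G protein signalling superfamily, was 32.9-fold lower on Avicel in ΔMttrc-1. Mycth_2309660, Mycth_2311075, Mycth_2306150, Mycth_81817 and Mycth_60267, which have no description in the sources used here, were lower by 54.3-fold to 191-fold.

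Several abundant genes were lower on Avicel at 6 h. The most abundant of them on starch, Mycth_87219, had 1493, 1499 and 1504 CPM on Avicel against 7111, 7196 and 7022 CPM on starch in ΔMttrc-1, and in MtWT 8351 ± 140.2 CPM on Avicel against 3485 ± 109.9 CPM on starch. A globin gene (Mycth_112322) had 573, 578 and 599 CPM on Avicel against 3877, 3954 and 3928 CPM on starch in ΔMttrc-1, a log2 fold change of -2.75 ± 0.061 (SE), adjusted p = 7.28e-23. In MtWT it had 4004 ± 36.2 CPM on Avicel and 4205 ± 189 CPM on starch. Mycth_45669 was 6.18-fold lower, the Hsp20 small heat shock protein gene Mycth_110532 2.62-fold lower, the thiamine pyrophosphate enzyme gene Mycth_112121 4.4004-fold lower and Mycth_2141513 2.06-fold lower, the last just past the threshold and under it with library totals (log2 fold change -0.951).

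On the higher side, the most abundant gene was Mycth_2303328, with 10251, 10393 and 10482 CPM on Avicel at 6 h against 1709, 1692 and 1679 CPM on starch in ΔMttrc-1, and 10594 ± 701 CPM on Avicel against 2563 ± 132 CPM on starch in MtWT. Mycth_2301985 had 2359.7, 2367 and 2321 CPM on Avicel against 653, 649 and 653 CPM on starch in ΔMttrc-1, while in MtWT it had 821 ± 22.2 CPM on Avicel and 795 ± 39.8 CPM on starch (difference of response 1.80 ± 0.065 (SE), adjusted p = 2.72e-18). A glutathione S-transferase gene (Mycth_112025), of a family that detoxifies reactive compounds, was 2.59-fold higher. Of the most increased genes, 5 have no description in the sources used here. Among them Mycth_84164 had 705, 694 and 717 CPM on Avicel against 1.96, 2.17 and 1.67 CPM on starch, and Mycth_62925 had 554, 540.4 and 545 CPM on Avicel against 4.81, 4.38 and 3.25 CPM on starch. Mycth_88807, Mycth_33936 and Mycth_85556 were 148-fold, 107-fold and 100.2-fold higher.

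The 5 genes with the most positive difference of response all fell on Avicel in MtWT. The ranking favours such genes, as the MtWT response is subtracted. Among all 531 genes called higher in ΔMttrc-1, 70 were called lower in MtWT. Mycth_2301791 had 1061, 1087 and 1089 CPM on Avicel at 6 h and 85.0, 88.8 and 88.0 CPM on starch in ΔMttrc-1, against 136 ± 4.10 CPM on Avicel and 345 ± 4.51 CPM on starch in MtWT (difference 4.97 ± 0.070 (SE), adjusted p = 2.30e-26). Mycth_2295570 had 32.6, 33.8 and 33.4 CPM on Avicel and 3.53, 4.02 and 3.01 CPM on starch in ΔMttrc-1, with 5.07 ± 0.334 CPM on Avicel and 25.9 ± 1.25 CPM on starch in MtWT. The carboxypeptidase A family gene Mycth_111035 and Mycth_2305433 were called higher in ΔMttrc-1 and lower in MtWT. Mycth_2306087 was not called in ΔMttrc-1, at 128, 138 and 138 CPM on Avicel and 109, 108 and 113 CPM on starch, and fell in MtWT to 8.97 ± 2.00 CPM on Avicel, against 179.7 ± 16.6 CPM on starch.

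The ΔMttrc-1 strain was also sampled after 4 h on Avicel, at the same time as the starch cultures. This comparison of Avicel times shares the Avicel 6 h libraries with the one above, so its values are set side by side only. Between the Avicel times, 1628 genes (19.0%) were called, 809 (9.44%) higher and 819 (9.55%) lower at 6 h. The cbh-1 gene had 1415 ± 30.4 CPM at 6 h and 4828 ± 249.7 CPM at 4 h on Avicel, beside 46.3 ± 0.818 CPM on starch. For gh5-1 the levels were 1356 ± 13.2 CPM at 6 h, 3837 ± 260.4 CPM at 4 h and 46.3 ± 0.923 CPM on starch. For Mycth_110651 they were 266 ± 5.12 CPM at 6 h, 1300.2 ± 49.9 CPM at 4 h and 0.204 ± 0.0618 CPM on starch. Of the 28 cellulose degradation genes, 4 were higher and 15 lower at 6 h than at 4 h. The gh1-1 beta-glucosidase gene differed little, with 904 ± 15.6 CPM at 6 h and 800.3 ± 74.2 CPM at 4 h, and the sugar transporter gene Mycth_114107 was higher at 6 h, with 1716 ± 20.8 CPM against 782 ± 36.9 CPM. The globin gene Mycth_112322 had 583 ± 13.7 CPM at 6 h and 12317 ± 560.3 CPM at 4 h, and Mthac-1 had 534 ± 3.96 CPM at 6 h and 250.4 ± 11.5 CPM at 4 h (SD, n = 3 throughout). The 2 control genes were also lower at 6 h, with log2 fold changes of -0.62 and -0.38, neither of them called. With library totals in place of TMM factors the median difference between the Avicel times moved to 0.638 (log2), in place of 0.0429. The values between the Avicel times, with their directions, therefore hold relative to the scaling only.

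Neighbouring genes moved together in places. By the RefSeq order of the annotated loci (assembly ASM22609v1, used for names and neighbours only), 10 runs of at least 4 consecutive tested genes were called in the same direction, 6 higher and 4 lower, holding 49 genes. The 4 longest had 6 genes each. A run on chromosome 6 was lower, with a median log2 fold change of -4.12. It included Mycth_105482, annotated with a phosphopantetheine attachment site of the kind found in carrier domains, with 8.25, 7.67 and 8.24 CPM on Avicel at 6 h against 278, 272 and 282 CPM on starch, and Mycth_113600, annotated with a steroid dehydrogenase domain, with 11.3, 11.1 and 12.8 CPM on Avicel against 303, 299.9 and 297 CPM on starch. All 6 genes were also lower in MtWT, with a median of -1.48, and 5 of the 6 differences were called lower in ΔMttrc-1. Among all genes tested, 10.5% were lower in MtWT and 16.4% had a difference called lower. Runs were picked by the ΔMttrc-1 response, which enters the difference, so that choice favours the direction of the difference. After 4 h on Avicel, 5 of the 6 genes stood above their starch level in ΔMttrc-1, with 614 ± 35.1 CPM for Mycth_105482 and 366 ± 31.1 CPM for Mycth_113600 (SD, n = 3), and the exception was Mycth_2311112 with 132 ± 9.89 CPM at 4 h on Avicel against 286 ± 5.62 CPM on starch.

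A run on chromosome 2 was higher on Avicel in ΔMttrc-1, with Mycth_2301791 as its strongest member. For all 6 genes the test of the difference called the response, not the level, higher in ΔMttrc-1 than in MtWT. Among all genes tested this held for 13.8%, and the choice of runs by the ΔMttrc-1 response favours this direction. Mycth_2301788 had 354 ± 5.70 CPM in ΔMttrc-1 and 350 ± 8.77 CPM in MtWT on Avicel at 6 h. On starch it had 100 ± 2.90 CPM in ΔMttrc-1 and 320 ± 6.90 CPM in MtWT. The last member of the run, the family 35 glycoside hydrolase gene Mycth_2109142, had 64 reads on Avicel and 26 on starch, its groups overlapped, and its call was lost with DESeq2 (adjusted p = 0.0737), with the replicate block (0.0586) and without Avicel replicate 1 or 3 or starch replicate 1 or 3 (adjusted p = 0.0666 to 0.258). The most abundant gene on the higher side, Mycth_2303328, lay in a run on chromosome 3. In it 3 of 6 differences between strains were called, all higher in ΔMttrc-1, the direction that the choice of runs favours. Mycth_84164 and Mycth_88807 lay in a run on chromosome 5 (median log2 fold change 2.13). No source used here says whether counting used the strand, and where neighbours overlap their reads may be mixed.

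The remaining lists were drawn from the genes with a description and stayed closer to the background of 6.19% higher and 6.88% lower. Of 20 fungal cell wall genes, 2 were higher and 4 lower. The chitinase gene Mycth_113450 had 752, 777 and 774 CPM on Avicel at 6 h against 63.6, 58.6 and 56.2 CPM on starch in ΔMttrc-1, and in MtWT 349.5 ± 14.9 CPM on Avicel against 217 ± 10.7 CPM on starch (difference of response 3.002 ± 0.091 (SE), adjusted p = 1.91e-19). The chitin-binding gene Mycth_103070 was 23.04-fold lower. Of 29 MFS transporter genes, 1 was higher and 5 lower. Of 24 transcription factor genes, 1 was higher and 3 lower, among them Mycth_107295, annotated as an aflatoxin biosynthesis regulatory protein, with 7.201, 6.82 and 7.46 CPM on Avicel against 144, 137 and 144 CPM on starch. Of 22 cytochrome P450 genes, 3 were higher and 2 lower, and of 19 peptidase genes, 4 were higher and 1 lower. The lower peptidase gene, Mycth_2106471, had 3 reads on Avicel and 346 on starch, a ratio of 136 in favour of starch with a 95% counting interval from 46.0 to 661.

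Few genes of general growth passed both thresholds. Of 25 ribosomal protein genes, 1 was higher and none lower, with a median log2 fold change of -0.19. None of 16 proteasome and ubiquitin, 9 respiration or 5 histone genes was called, with medians of -0.07, -0.32 and -0.27. By edgeR's adjusted p alone, 6 and 5 of the proteasome genes were higher and lower, 1 and 6 of the respiration genes, and none and 4 of the histone genes, beside 31.4% higher and 32.6% lower among all genes. Of 14 heat shock and chaperone genes, 1 was higher and 2 lower. Of 15 DNA replication and repair genes, 2 were higher and none lower, and of 6 amino acid and ammonium transport genes, 1 was lower. For the ribosomal list the test between strains called 9 of 25 lower in ΔMttrc-1, against 2 lower and 1 higher with library totals, and for the respiration list 5 of 9 lower, against 3 with library totals. Among all 8573 genes the same test called 13.8% higher and 16.4% lower, and with library totals 2077 genes higher and 898 lower.

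**Figure D5:**
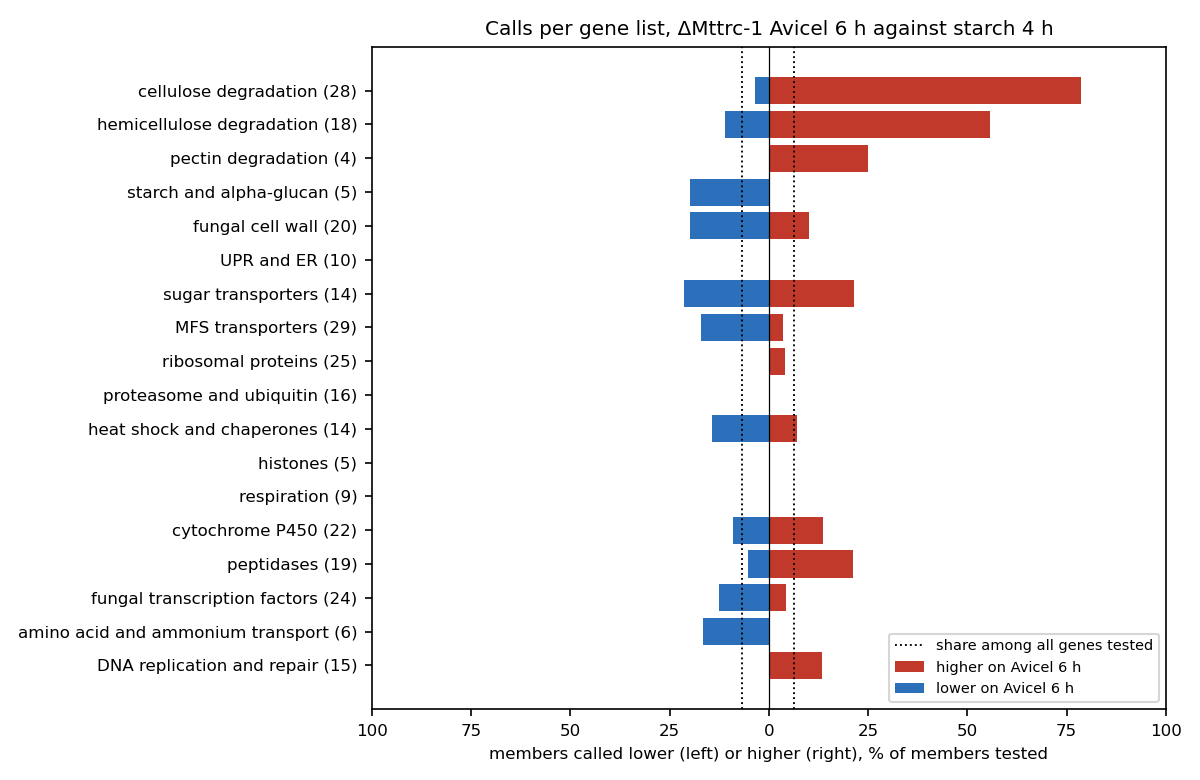
Share of the tested members of each gene list called higher (red, right) or lower (blue, left) in ΔMttrc-1 on Avicel at 6 h against starch at 4 h, in percent, with the number tested in brackets. Dotted lines mark the shares among all genes tested, 6.19% higher and 6.88% lower. The cellulose degradation and hemicellulose degradation lists reach farthest on the higher side.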

How the data were processed

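RNA was sequenced from 18 libraries of M. thermophila, 3 in each of 6 groups of strain, carbon source and time. The authors aligned clean reads to the predicted transcripts, assigned uniquely mapped reads to genes, and deposited raw read counts and RPKM values for each gene. The submitters' processing notes name TopHat2 2.0.8b and HTSeq 0.5.4p2, versions that differ from those in the study's methods. The strand setting of the counting is not given in the sources used here.

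The deposited counts of 9109 genes were filtered with edgeR's filterByExpr, which left 8573 (the 536 left out held 0.00403% of counts). Counts were scaled by TMM and fitted with edgeR 4.0.16 (quasi-likelihood, robust) in R 4.3.3, with all 6 groups in the fit. Genes were called at a Benjamini-Hochberg adjusted p under 0.05 and a fold change over 2. The difference between strains was the contrast of both carbon responses. Deposited RPKM served for levels between genes and for an alternative with limma 3.58.1. DESeq2 1.42.0 was another alternative. Totals were 17250057 to 24387079 counts per library. Counting intervals are exact at 95% and cover counting error only.

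Genes named in the text were the members of the gene lists, by role, and genes taken by rank: the 12 most increased and 12 most decreased called genes with at least 10 CPM in a group and groups that did not overlap, the 6 most abundant called genes in each direction, and the 5 most positive and 5 most negative called differences between strains. Of runs of at least 4 neighbouring genes called in the same direction, the 4 longest were described. Members and lists were chosen with earlier results of these data known. Descriptions were at hand for 1686 genes. On simulated counts for this comparison (8573 genes, 50 per fold size), 2% of genes changed 1.5-fold, 42% of 2-fold, 90% of 3-fold and 98% of 4-fold were called, with 0 calls among unchanged genes.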

Additional observations from a re-analysis of the deposited data

Results flagged for a closer look

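By the test of the difference itself, the response to Avicel at 6 h over starch at 4 h differed between ΔMttrc-1 and MtWT. The response was higher in ΔMttrc-1 for 1184 genes and lower for 1403. Among the cellulose degradation genes, 3 differences were higher and 12 lower, and among the UPR and ER genes 7 were lower, in lists partly or wholly chosen by the study for lower levels in ΔMttrc-1.

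The most negative differences of response (log2, ΔMttrc-1 minus MtWT) were those of Mycth_107763 (-15.04), Mycth_2311075 (-10.96), Mycth_2309660 (-10.71), Mycth_2296904 (-10.33) and Mycth_73236 (-9.73). All 5 genes were lower on Avicel than on starch in ΔMttrc-1 and higher on Avicel in MtWT. The value for Mycth_107763 rests on 1 read in the ΔMttrc-1 Avicel 6 h libraries and depends on the prior count of the fit.

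The most positive differences were those of Mycth_2295570 (5.59), Mycth_2301791 (4.97), Mycth_111035 (4.64), Mycth_2305433 (4.63) and Mycth_2306087 (4.62). The first 4 genes were higher on Avicel in ΔMttrc-1 and lower in MtWT, and Mycth_2306087 was called in MtWT only.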

How the results depend on the processing

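The main count of 1121 genes was 686 (296 higher, 390 lower) when tested against a fold change of 2 with glmTreat and 5482 (2688 higher, 2794 lower) by adjusted p alone, and lay between 1097 and 1119 (510 to 532 higher, 587 to 597 lower) when each of the 6 libraries was left out. The strain difference was called for 1702 genes (701 higher) with glmTreat and 6189 (3208 higher, 2981 lower) by adjusted p alone, against 2587. Its split was 2077 higher and 898 lower with library totals, 1779 and 810 with limma on log2(RPKM + 1), and 2035 and 900 on log2(RPKM + 0.1). Leaving out libraries gave 2548 to 2645 (1154 to 1231 higher, 1384 to 1414 lower). The Avicel times differed in 2832 genes with library totals, 2796 on log2(RPKM + 0.1), 1002 with glmTreat and 6229 by adjusted p alone, against 1628, and the MtWT count was 6599 by adjusted p alone. The cause of the shifts with scaling was not tested.

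The direction of Mycth_2071057 (-0.04, not called) turned to 0.053 with library totals and to 0.031 and 0.039 with limma on log2(RPKM + 1) and log2(RPKM + 0.1), and lay between -0.18 and 0.059 when 1 library was left out. The strain difference of Mycth_100518 (not called) was -2.73 and -0.53 in the same limma fits, that of Mycth_114107 was 0.26 with library totals and 0.20 and 0.25 in the limma fits, and that of Mycth_92668 (-0.70) lay between -1.05 and 0.11 when 1 library was left out, the last without starch replicate 2 of ΔMttrc-1. Samples with the same replicate number were little related (correlations of deviations -0.000779 to 0.0496 between the compared groups and -0.0678 to 0.0496 over all pairs of groups checked). Between ΔMttrc-1 and MtWT on Avicel at 6 h, though, each replicate correlated best with the one of the same number (0.0455, 0.0277 and 0.021). With the replicate block the main count was 1111, the strain difference 2579, the Avicel times 1626 and MtWT 2012.

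Starch at 6 h was not analysed here, 3 libraries a group limit precision, and calls on few reads are weak, such as Mycth_2044732, lost without Avicel replicate 2, and Mycth_2109142, lost when any 1 of 4 of the 6 libraries was left out.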
